A study of Mus musculus with 26 samples.

Results

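The transcripts described here are those of wild-type (WT) germinal vesicle (GV) oocytes of the mouse, which are full-grown and held in meiotic prophase with the nucleus still intact. The libraries were chosen by their labels: 6 of the 26 libraries of the series carry the label WT and the genotype Tet3 LCDf/f, and no Cre is named for them. Tet3 encodes a dioxygenase that oxidizes methylated cytosine, and f/f marks the domain the labels call LCD as flanked by loxP sites, so these oocytes are controls with a floxed allele and not oocytes of an unmodified strain. The libraries of altered Tet3, Dnmt3a or all 3 Tet genes, for which the WT oocytes are the control, were not used. The labels place WT 5 and WT 6 in batch 3, WT 4 in batch 2 and WT 1, WT 2 and WT 3 in batch 1, without saying what a batch shared. They give neither strain nor age. Each library came from a pool of 10 GV oocytes and was sequenced from polyA RNA as 150-bp paired-end reads. The labels call the pools biological replicates, so every p-value below measures the spread between pools.

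A growing mouse oocyte transcribes its genome, stores much of the resulting mRNA and falls almost silent before it resumes meiosis. The stored transcripts carry it through meiotic maturation and fertilization until the embryonic genome takes over, and many of them are held with short poly(A) tails until they are translated or degraded. A method that starts from polyA RNA therefore measures both the amount of a transcript and, to a degree not known here, the length of its tail.

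The cells were checked against 5 genes that mark growing and grown oocytes. Zp3, a glycoprotein of the egg coat, had 2209.7 and 2263 CPM in batch 3, 1501 CPM in batch 2 and 3542, 3790.4 and 3472 CPM in batch 1. Gdf9, a growth factor that the oocyte sends to granulosa cells, had 4976 and 6049 CPM in batch 3, 3820.4 CPM in batch 2 and 9538, 9652 and 9302 CPM in batch 1. Bmp15, the X-linked partner of Gdf9, had 1947 and 2188 CPM in batch 3, 9416 CPM in batch 2 and 2938, 2385 and 1627 CPM in batch 1. Zp3 and Gdf9 were highest in batch 1 with no overlap between batches, whereas Bmp15 was highest in batch 2 and overlapped between batches 3 and 1. Nlrp5, also called Mater, had 2695 and 2258 CPM in batch 3, 3897 CPM in batch 2 and 2059, 2452 and 2216 CPM in batch 1. Ooep, a partner of Nlrp5 in the complex under the egg cortex, had 1356 and 1297 CPM in batch 3, 3948 CPM in batch 2 and 4934, 3930.3 and 3321 CPM in batch 1. Their ranks by mean level among 24450 features were 8 for Gdf9, 26 for Bmp15, 28 for Ooep, 33 for Zp3 and 37 for Nlrp5, so the label of the libraries held for all 5.

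The promoter windows of the 4 of these genes with an entry in the RefSeq table used are shown, because the search for motifs described next was run on such windows. Each runs from 250 bases before to 50 bases after an annotated start on GRCm38.p6, and capitals mark matches on either strand to 3 motifs. The first is TATAAA, a core promoter element. The second is CANNTG, the E-box that the oocyte factor Figla binds, and the third is TAATTG, the core that the oocyte factor Nobox binds. A match on the other strand reads TTTATA for the first motif or, for the third motif, CAATTA. Zp3 lies at chr5:135979855-135980154 on the plus strand, Nlrp5 at chr7:23403852-23404151 on the plus strand, Ooep at chr9:78378539-78378838 on the minus strand and Bmp15 at chrX:6320675-6320974 on the minus strand. Nlrp5 has 2 annotated starts, and the first is shown. No entry was used for Gdf9, Zp1 or Zp2.
Zp3: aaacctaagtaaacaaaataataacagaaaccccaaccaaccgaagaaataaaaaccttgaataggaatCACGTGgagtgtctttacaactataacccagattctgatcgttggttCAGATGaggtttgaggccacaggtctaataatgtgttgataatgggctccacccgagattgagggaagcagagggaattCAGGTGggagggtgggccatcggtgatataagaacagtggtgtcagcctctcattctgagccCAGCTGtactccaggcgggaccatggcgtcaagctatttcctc
Nlrp5: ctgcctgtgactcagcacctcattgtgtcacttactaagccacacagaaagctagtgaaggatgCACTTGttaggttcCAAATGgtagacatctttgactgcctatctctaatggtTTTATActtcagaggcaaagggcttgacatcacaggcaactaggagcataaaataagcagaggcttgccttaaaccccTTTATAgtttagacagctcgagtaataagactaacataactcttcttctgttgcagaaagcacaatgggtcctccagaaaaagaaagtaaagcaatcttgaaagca
Ooep: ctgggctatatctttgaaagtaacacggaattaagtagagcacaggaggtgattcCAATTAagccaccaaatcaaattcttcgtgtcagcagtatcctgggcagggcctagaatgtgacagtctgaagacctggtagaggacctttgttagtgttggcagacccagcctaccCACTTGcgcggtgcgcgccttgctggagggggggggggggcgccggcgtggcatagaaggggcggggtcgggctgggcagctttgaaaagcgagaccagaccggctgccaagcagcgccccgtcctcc
Bmp15: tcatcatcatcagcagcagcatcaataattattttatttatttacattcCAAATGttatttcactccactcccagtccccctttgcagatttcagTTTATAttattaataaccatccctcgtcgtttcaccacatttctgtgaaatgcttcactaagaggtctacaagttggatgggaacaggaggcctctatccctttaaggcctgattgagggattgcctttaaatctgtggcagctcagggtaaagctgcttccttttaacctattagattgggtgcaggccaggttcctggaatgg

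The Zp3 window held 4 matches to the E-box and none to the other motifs. Nlrp5 held 2 matches to the core element and 2 to the E-box, Ooep 1 to the E-box and 1 to the Nobox core, and Bmp15 1 to the core element and 1 to the E-box. The E-box occurred in 73.3% of the 75 windows found for the 100 most abundant genes, in 75.6% of the 4735 windows of genes with 0 counts and in 69.0% of the 17669 windows of all genes in the table, so most windows hold one. The core element occurred in 12%, 23.2% and 12.9% of the same 3 sets, and the Nobox core in 6.67%, 10.5% and 7.04%. A match describes the letters in the window and is not a binding site.

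Total counts were 3030716 and 3292247 in batch 3, 5403852 in batch 2 and 3489552 to 4309573 in batch 1, and 13628 to 14791 features had at least 1 count in a library. Levels are CPM, the depth-normalised read count of a gene relative to this total. Rn45s, the precursor of ribosomal RNA, took 0.0646% and 0.167% of counts in batch 3, 3.11% in batch 2 and 0.335% to 0.714% in batch 1. Tet3, the floxed gene, had 165 and 249 CPM in batch 3, 440.4 CPM in batch 2 and 202, 136 and 173 CPM in batch 1. The 16 granulosa cell markers, genes of the somatic cells that surround the oocyte, summed to 75.9 and 72.9 CPM in batch 3, 72.2 CPM in batch 2 and 61.0 to 97.6 CPM in batch 1, with Wnt4 at 0. Most of that sum was Cyp19a1 (26.6 ± 7.75 CPM, SD, n = 6) and Nr5a2 (20.7 ± 7.75 CPM), while Foxl2 (0.247 CPM) and Fshr (0.363 CPM) were near 0. In pooled cells, fewer cells of a type and less RNA per cell cannot be told apart. The 9 cumulus cell markers summed to 1.15 to 4.07 CPM over the libraries, the 16 blood and immune markers to 0.262 to 3.96 CPM, and the 15 theca and stroma markers to 9.17 to 21.6 CPM.

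The WT transcriptome was spread over many genes, with a steep head. In all, 122 features averaged 1000 CPM or more and took 31.5% of counts, 1896 lay between 100 and 1000 CPM and took 46.4%, and 5428 lay between 10 and 100 CPM and took 20.2%. A further 4282 features at 1 to 10 CPM held 1.78% of counts, and 5121 detected features under 1 CPM held 0.144%. The most abundant gene held 1.19% of counts, the 10 most abundant 8.61%, the 100 most abundant 29.1% and the 1000 most abundant 63.8%, and 458 genes together held 50%. Protein-coding genes took 97.8% of counts, and long non-coding genes 0.960%. At least 1 CPM in every library was reached by 9963 features.

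The head of the ranking was heavier in batch 1 than in the other batches. The 100 most abundant genes of each library held 25.95% and 22.5% of counts in batch 3, 25.4% in batch 2 and 34.3%, 35.1% and 35.2% in batch 1. A library's first 50% of counts lay in 572 and 697 genes in batch 3, in 621 genes in batch 2 and in 279 to 295 genes in batch 1.

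**Figure D1:**
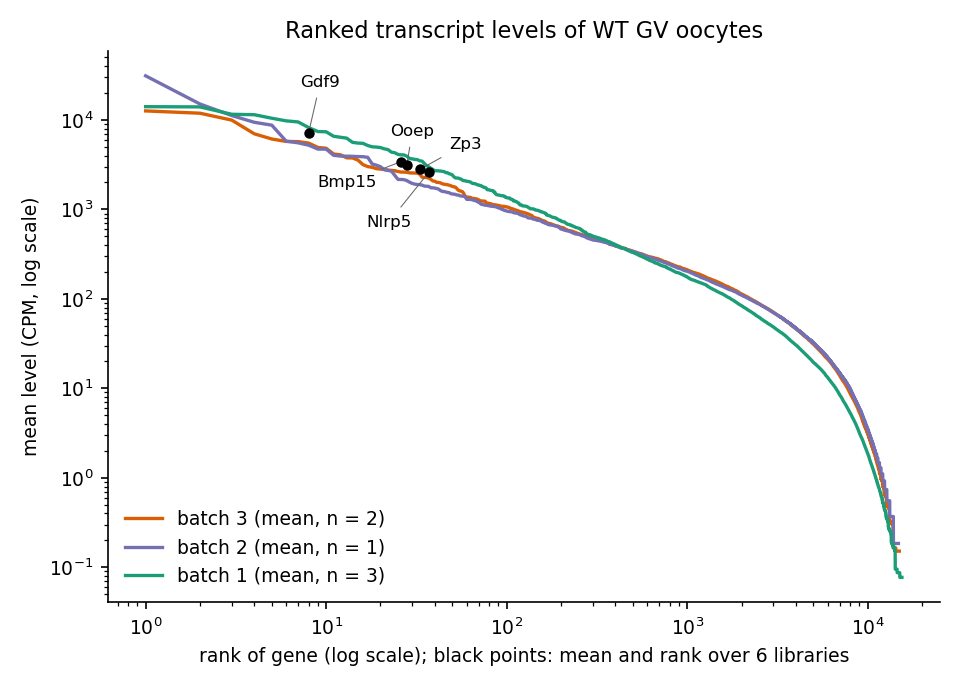
Mean level (CPM, log scale) against rank (log scale) for every detected gene, with 1 line per batch (batch 3, 2 libraries; batch 2, 1 library; batch 1, 3 libraries) and 5 oocyte markers as black points at their mean and rank over the 6 libraries. The batch 1 line lies above the others between rank 10 and rank 100 and below them from about rank 1000 on, and the first point of batch 2 is Rn45s.

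Because a longer transcript yields more fragments, genes were also compared with each other after division by the length of the longest annotated transcript (CPM per kilobase). On that scale the 3 highest genes were Dppa3 (10023 ± 4736 CPM per kilobase, SD, n = 6), Ldhb (9136 ± 3289.5 CPM per kilobase) and H1foo (9017 ± 3902 CPM per kilobase), followed by Ubb (5999.96 ± 1668 CPM per kilobase), Gm813 (5473 ± 2044 CPM per kilobase) and Khdc3 (4929 ± 2281 CPM per kilobase). The SDs of Dppa3, Ldhb and H1foo exceeded the gaps between them, so their order is not fixed by these data. Of the 20 genes highest by CPM, 15 were also among the 20 highest per kilobase, and 77 were shared between the first 100 of each ranking. Spin1, rank 3 by CPM with an annotated transcript of 4434 bases, had rank 19 per kilobase, and Umodl1, rank 18 by CPM, had rank 87. A level in CPM below therefore says how many counts a gene took. Where genes are said to lead, follow or be highest with values in CPM, the order is one of counts and can differ per kilobase. Dppa5a (3443 ± 766 CPM per kilobase), a KH-domain gene, and Omt2b (2916 ± 971 CPM per kilobase), both with transcripts under 1000 bases, entered the first 20 per kilobase from CPM ranks 47 and 46.

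Ldhb, the B subunit of lactate dehydrogenase, led by CPM with 14629 and 10604 CPM in batch 3, 4026 CPM in batch 2 and 11973, 14948 and 15302 CPM in batch 1. H1foo, the oocyte linker histone, had 7317 and 6682 CPM in batch 3, 4726 CPM in batch 2 and 12916, 14093 and 14965 CPM in batch 1. Dppa3 (Stella), which protects the maternal genome from demethylation in the zygote, had 7329 and 4923 CPM in batch 3, 3121 CPM in batch 2 and 9526, 12278 and 12919 CPM in batch 1. In all 3 genes the batch 2 library was the lowest, and batches 3 and 1 overlapped for Ldhb only. Spin1, a reader of histone methylation that is abundant in oocytes and was first described as a meiotic spindle protein, had 12068 and 11720.0 CPM in batch 3, 2731 CPM in batch 2 and 9734, 10612 and 11013 CPM in batch 1. Ubb, a polyubiquitin gene, had 11926 and 7992 CPM in batch 3, 4721 CPM in batch 2 and 8868, 9822 and 10635 CPM in batch 1. Khdc3 (Filia), a member of the subcortical maternal complex, had 6489.6 and 4960.1 CPM in batch 3, 3938 CPM in batch 2 and 8988, 11830.2 and 13507 CPM in batch 1. Batch 2 was again the lowest for these genes, at a level from 2731 CPM for Spin1 to 4721 CPM for Ubb.

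The place of Rn45s rested on 1 library: it had 646 and 1673 CPM in batch 3, 31124 CPM in batch 2 and 7136, 3516 and 3354 CPM in batch 1, and ranked 7 by mean because of batch 2 (rank by mean over the 6 libraries). Padi6, the peptidylarginine deiminase of the cytoplasmic lattices, had 2759 and 3571 CPM in batch 3, 15074 CPM in batch 2 and 4989.8, 4305 and 3070.0 CPM in batch 1, so that its batch 2 level was above all others. Skp1a, the adaptor of SCF ubiquitin ligases, had 5259 and 4402 CPM in batch 3, 11198 CPM in batch 2 and 6455, 6844 and 5896 CPM in batch 1, also highest in batch 2. Fbxw24, an oocyte F-box gene, was the steadiest of the first 20, with 6949 and 4558 CPM in batch 3, 5798 CPM in batch 2 and 4454, 5055 and 5512 CPM in batch 1, a span of 1.56-fold in which the batches overlapped.

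**Figure D2:**
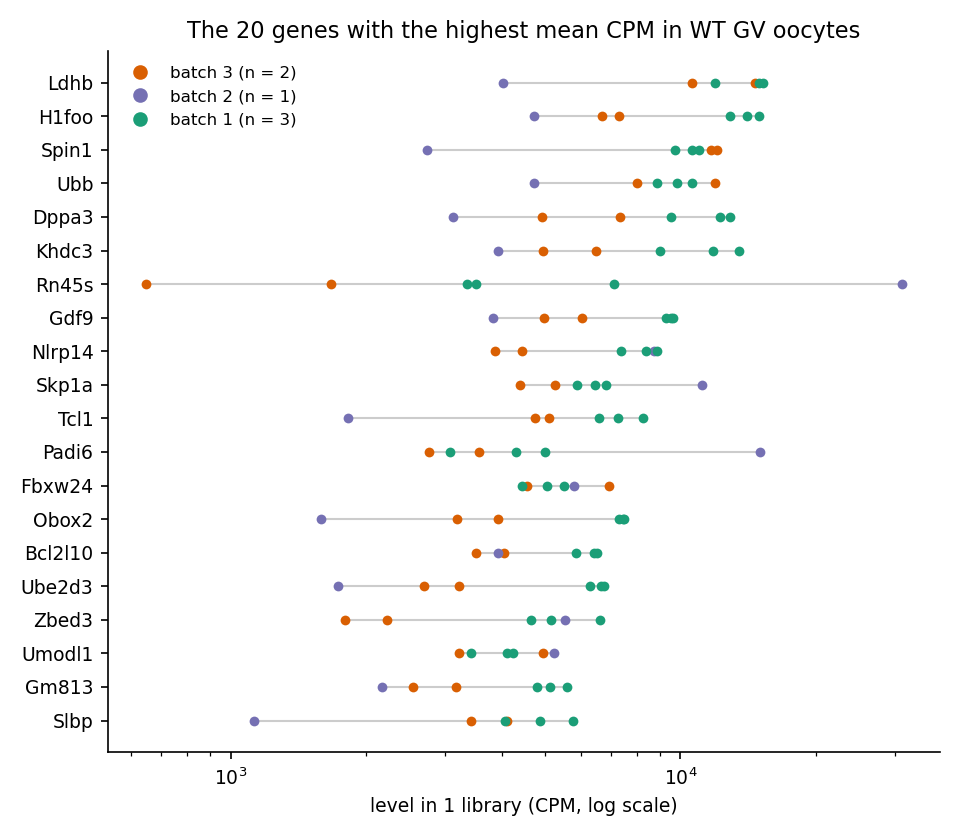
Level of the 20 genes with the highest mean CPM in each of the 6 libraries (CPM, log scale), ordered by mean from top to bottom, with 1 point per library coloured by batch. The batch 2 point is the lowest for 12 of the 20 genes and the highest for 4.

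The egg coat and surface genes were abundant, with 9 of 10 at 100 CPM or more. Zp1 (1105 ± 169 CPM, SD, n = 6), Zp2 (2678 ± 782 CPM) and Zp3 (2796 ± 928 CPM) encode the zona pellucida, and per kilobase they stood at 563, 1199.5 and 2114 CPM. Oosp1 (1883 ± 959 CPM), Oosp3 (1701 ± 673 CPM) and Oosp2 (929 ± 123 CPM) encode oocyte-secreted proteins. Astl (594 ± 68.7 CPM) encodes ovastacin, the protease that cleaves ZP2 after fertilization. Of the surface proteins needed for fusion with sperm, Cd9 had 513 ± 135 CPM and Izumo1r (Juno) 162 ± 70.4 CPM. The tetraspanin Cd81 was low: it had 4.62 and 3.34 CPM in batch 3, 0 CPM in batch 2 and 2.35, 1.39 and 1.72 CPM in batch 1, which at 25 counts in batch 3 and 0 in batch 2 is at least 7.12-fold higher in batch 3 (0 counts read as 3 over a batch, here and below).

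The subcortical maternal complex, an assembly under the oocyte membrane without which embryos stop dividing early, took 3.06% of all counts over 8 genes, 7 of them at 1000 CPM or more. Its largest members per kilobase were Khdc3 (4929 CPM per kilobase), Padi6 (2412 CPM per kilobase) and Zbed3 (2227 CPM per kilobase). By counts, Tle6 (2965 ± 1335 CPM) and Ooep (3131 ± 1490.5 CPM) were also high. Nlrp2 took the fewest counts, at 333 ± 84.7 CPM. Nlrp5 and Nlrp4f (3353 ± 1150.0 CPM) belong both to this complex and to the NLRP genes, proteins with leucine-rich repeats that have multiplied in rodents. Of 17 NLRP genes, 11 reached 1 CPM, and Nlrp14, with 3877 and 4447 CPM in batch 3, 8746 CPM in batch 2 and 8888, 8372 and 7388 CPM in batch 1, took the most counts. Per kilobase it stood at 2125 CPM, against 223 CPM for Nlrp9c and 8.49 CPM for Nlrp4c. The NLRP and FBXW copies are similar in sequence, and the counting of reads with several matches was not given in the sources used here. The split among copies is uncertain.

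Other families that are expanded in rodents were described too, and they were chosen with earlier results of these data known. The 22 FBXW genes took 2.20% of counts, none was at 0 (beside 31.1% of all features), and 8 reached 1000 CPM, led by Fbxw24 and Fbxw16 (2512 ± 459 CPM). The 6 TCL1 genes took 0.753%, most of it from Tcl1 (5633 ± 2282 CPM), a coactivator of Akt kinase. The 6 Obox homeobox genes took 0.773%, with Obox2 at 3933 and 3188 CPM in batch 3, 1586 CPM in batch 2 and 7304, 7502 and 7455 CPM in batch 1. Obox1 averaged 1251 ± 613 CPM and Obox5 1093 ± 358 CPM, while Obox3 had 0.295 CPM and Obox6 0.0506 CPM. Among PRAME-like and oogenesin genes, Oog3 (1424 ± 528 CPM) and Oog4 (1109.6 ± 339.6 CPM) led. Of these 17 genes 6 were at 0, a share of 35.3% that is near the 31.1% of all features. Bcl2l10, an oocyte member of the BCL2 family, had 4041 and 3502 CPM in batch 3, 3924 CPM in batch 2 and 5852, 6520.1 and 6411 CPM in batch 1, with batch 1 above the other batches. Per kilobase it stood at 4132 CPM, against 38.1 CPM for Bcl2l1 and 1.29 CPM for Mcl1, survival factors of the same family.

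Among signals to the surrounding cells, Gdf9 and Bmp15 took the most counts. Kit, the receptor for the granulosa ligand KITL, had 372 ± 368 CPM, with 1116 CPM in WT 4 (batch 2) and 160 to 304 CPM in the other libraries. Gja4 (connexin 37), the oocyte's gap junction protein, had 1065 ± 518 CPM, while Gja1 (connexin 43), the granulosa connexin, averaged 2.52 CPM. Fgf8 had 151 ± 27.6 CPM, and Bmp6 42.6 ± 21.4 CPM. Of the transcription factors that set up the oocyte program, Nobox had 422 ± 129 CPM, Lhx8 132 ± 29.3 CPM and Figla 55.8 ± 19.5 CPM (SD, n = 6). Per kilobase, Figla stood at 73.6 CPM and Zp3, one of its targets, at 2114 CPM. In the list of 13 factors Sall4 (467 ± 159 CPM) took the most counts, followed by Nobox and then Pou5f1 (365 ± 116 CPM), and Taf7l was at 0. Sohlh1, which acts in primordial and primary follicles, averaged 0.143 CPM.

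Proteins that store mRNA and hold back its translation were well represented, with 22 of 22 at 1 CPM or more. Pabpn1l, an oocyte poly(A)-binding protein, averaged 2322 ± 1548 CPM, and Zar1, needed for storage of maternal mRNA, 1838 ± 631 CPM. Dazl (1663 ± 555 CPM) and Cpeb1 (1302 ± 389 CPM) encode proteins that steer translation through 3′ ends. Ybx2 (MSY2), which coats maternal mRNA and is known as one of the most abundant oocyte proteins, had 20.8 and 30.7 CPM in batch 3, 40.7 CPM in batch 2 and 15.7, 12.5 and 11.5 CPM in batch 1, a low level per kilobase (13.1 CPM against 1286 CPM for Zar1). Of the genes for decay of maternal mRNA, Btg4, the adaptor that brings the CCR4-NOT deadenylase to maternal transcripts, was highest at 2198 ± 818 CPM. Its partners Cnot7 (739.9 ± 225 CPM) and Cnot6l (171 ± 97.9 CPM) followed, and Dcp1a had 535 ± 132 CPM. The decay activator Zfp36l2 averaged 3.81 CPM. The low counts of Ybx2 and Zfp36l2 are uncertain as levels, because the counting rules are not given in the sources used here.

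Genes of meiotic arrest and maturation were present in depth, 25 of 38 at 100 CPM or more. Pttg1 (securin, 3117 ± 983.8 CPM), Mos (1610.2 ± 670.0 CPM), a kinase that starts the MAP kinase cascade of maturation, and Ccnb1 (cyclin B1, 1468 ± 429 CPM) led with Btg4. Wee2, the inhibitory kinase of CDK1 in oocytes, averaged 361 ± 78.1 CPM, and Cdk1 itself 141 ± 32.5 CPM. Gpr3, the receptor that keeps cyclic AMP high in arrested oocytes, had 68.4 ± 61.4 CPM (27.2 CPM per kilobase, against 0.295 for the related Gpr12). The Gpr3 mean rested on WT 4 (batch 2), with 193 CPM there and 34.4 to 51.0 CPM in the other libraries. Genes of earlier prophase were lower than these maturation genes but above the typical feature. The 22 genes for cohesin and recombination summed to 492 CPM, with a median of 12.5 CPM. That median was 132 CPM for the 38 maturation genes and 0.725 CPM over all features. Sycp3 averaged 21.9 ± 6.31 CPM, and Stra8 and Spo11 were at 0. Of the 22 genes 2 were at 0, a share of 9.09% beside 31.1% of all features.

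Among factors of DNA methylation and imprint protection, Dppa3 was followed by Zfp57 (1124 ± 230.2 CPM), which keeps imprints in the embryo, Uhrf1 (1099 ± 422 CPM) and Dnmt1 (1045 ± 423 CPM), the maintenance pair. Dnmt3a (320.1 ± 179.6 CPM) and its cofactor Dnmt3l (170.3 ± 104 CPM), which together methylate the growing oocyte's genome, stood at 33.1 and 93.4 CPM per kilobase, against 2.68 for Dnmt3b. Of the Tet genes, Tet3 averaged 228 ± 111 CPM, Tet1 3.79 ± 2.47 CPM and Tet2 3.26 ± 1.08 CPM. Per kilobase Tet3 stood at 20.9 CPM, far above Tet1 at 0.264 CPM and Tet2 at 0.355 CPM. Tdg, a glycosylase that removes oxidized methylcytosine, was listed at 0 in all 6 libraries. This 0 is uncertain as a level, because no source used here tells how reads with several matches were counted. Npm2, the histone chaperone of the egg, averaged 909 ± 208 CPM, and the replacement histone gene H3f3b 2841 ± 1193 CPM. Slbp, which binds histone mRNA, had 3898 ± 1579 CPM. The 69 canonical histone genes, most of whose mRNAs lack a poly(A) tail in dividing cells, summed to 353 CPM. Of these, 18 were at 0, a share of 26.1% that is below the 31.1% of all features.

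The small RNA pathway included Dicer1 (299 ± 49.4 CPM), which in mouse oocytes makes endogenous siRNAs, and the piRNA-pathway genes Gtsf1 (902 ± 274 CPM) and Tdrd12 (573 ± 113 CPM). Ago2, the slicer, averaged 52.5 ± 22.7 CPM, and Piwil4 was at 0.

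Metabolic genes were uneven within a pathway. In glycolysis, Ldhb (9136 CPM per kilobase) was far above Pkm (187), Aldoa (105), Tpi1 (57.2) and Gapdh (18.9). Ldha, the subunit typical of muscle, had 0 and 0 CPM in batch 3, 3.52 CPM in batch 2 and 3.14, 1.86 and 2.01 CPM in batch 1, and was at least 4.90-fold lower in batch 3 than in batch 1. Eno1 averaged 0.0436 CPM, Hk1 0.152 CPM and Slc2a3 0.0308 CPM, and Eno2 was at 0. The counts of Eno1 and Hk1 are uncertain for the same reason as that of Tdg. Mouse oocytes use pyruvate in place of glucose, and 26 of 26 genes for pyruvate use and the citric acid cycle reached 1 CPM, led by Pdhx (349 ± 32.6 CPM) and Sdhd (302 ± 121 CPM). Cholesterol synthesis is a pathway that oocytes leave largely to cumulus cells. Its genes were still broadly detected, with 19 of 21 at 1 CPM or more and 0 at 0 counts. Their median was 8.60 CPM, beside 0.725 CPM over all features, and Fdft1 (844 ± 137 CPM) was the only one at 100 CPM or more. The peroxiredoxins Prdx1 (1483 ± 523 CPM) and Prdx2 (1323 ± 328 CPM) led the antioxidant genes, and Cat, catalase, averaged 0.334 CPM.

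The machinery of protein synthesis and breakdown was broad and not dominated by single genes. The 85 ribosomal protein genes took 1.66% of counts with a median of 135 CPM, and Rpl5 (2049 ± 723 CPM) was the only one at 1000 CPM or more. The 83 nuclear genes of the respiratory chain took 1.37%, the 43 proteasome genes 1.08%, and the 78 mitochondrial ribosomal protein genes 0.820%. For comparison, the median over all 24450 features was 0.725 CPM. Hsp90aa1 (3089 ± 583 CPM) led the chaperones, while the stress-inducible Hspa1a (0.934 CPM) and Hspa1b (0.182 CPM) were near 0. Among tubulins, Tubb4b (1557 ± 790.4 CPM) and Tuba3a (1225 ± 182 CPM) led, and Tubb1 was at 0. Genes often used as references spanned from Ubb to Gusb (0.145 CPM), and Gapdh had 16.8 and 15.8 CPM in batch 3, 78.5 CPM in batch 2 and 17.8, 15.8 and 16.05 CPM in batch 1, with batch 2 above all other libraries.

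A total of 7601 features (31.1%) had 0 counts in all 6 libraries. That allows up to 3 counts of 23348148, a level of up to 0.128 CPM, and the limit covers counting error only. Protein-coding genes made up 67.1% of these features and small RNAs 16.3%, since 1238 of 1304 small RNA rows were at 0. A low count is also no proof of absence for genes with near-identical copies elsewhere or with an overlapping neighbour, because the counting rules are not given in the sources used here. Rec8 (0.0387 CPM), the cohesin subunit that holds the chromosomes of oocytes together, had a count near 0 in a cell type known to depend on it.

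Most members of several large sensory and barrier families were at 0. Of 1108 olfactory receptors 982 were at 0, of 328 vomeronasal receptors 273, of 54 keratin-associated proteins 50, of 37 small proline-rich proteins 35 and of 21 major urinary proteins 20. A few members were exceptions: Olfr976 had 188 and 185 CPM in batch 3, 111 CPM in batch 2 and 74.6, 80.3 and 63.9 CPM in batch 1, and Olfr288 averaged 73.2 ± 85.5 CPM. The Olfr288 mean rested on WT 4 (batch 2), with 242 CPM there and 17.5 to 69.6 CPM in the other libraries. Of 39 HOX genes 15 were at 0, a share of 38.5% that is near the 31.1% of all features. In all 38 of them stayed under 1 CPM, beside 52.0% of all features. The exception was Hoxa7, with 59.1 and 52.2 CPM in batch 3, 41.8 CPM in batch 2 and 31.7, 36.0 and 42.7 CPM in batch 1. Among keratins Krt12 averaged 91.7 ± 27.9 CPM, and among cytochrome P450 genes Cyp4f39 averaged 137 ± 57.2 CPM.

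Genes of other cell types were mostly under 1 CPM, as were 52.0% of all features. Alb, Apoa2, Ttr, Fgb and 7 other liver genes of a list of 15 were at 0, and the other 4 stayed under 1 CPM. Of 17 muscle genes 14 stayed under 1 CPM and 6 were at 0, a share of 35.3% that is near the 31.1% of all features. Ckm, Myod1 and Myog were among these 6, and Ttn averaged 17.6 ± 7.89 CPM. Of 15 neuron and glia genes 11 were under 1 CPM and 7 at 0, and Syt1, which encodes a calcium sensor of exocytosis, averaged 27.0 ± 11.9 CPM. Of 20 sperm genes 16 were under 1 CPM and 9 at 0, including Prm1, Tnp1 and Pgk2, while Ldhc (22.1 ± 6.83 CPM) and Odf2 (82.0 ± 8.65 CPM) were detected. The endothelial marker Pecam1 had 62.0 and 79.0 CPM in batch 3, 38.7 CPM in batch 2 and 47.1, 48.7 and 54.4 CPM in batch 1, while Cdh5, which defines that cell type, was at 0 and Kdr averaged 2.13 CPM. Both globin-alpha rows, all 3 globin-beta rows and Ptprc, the common leukocyte antigen, were at 0.

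**Figure D3:**
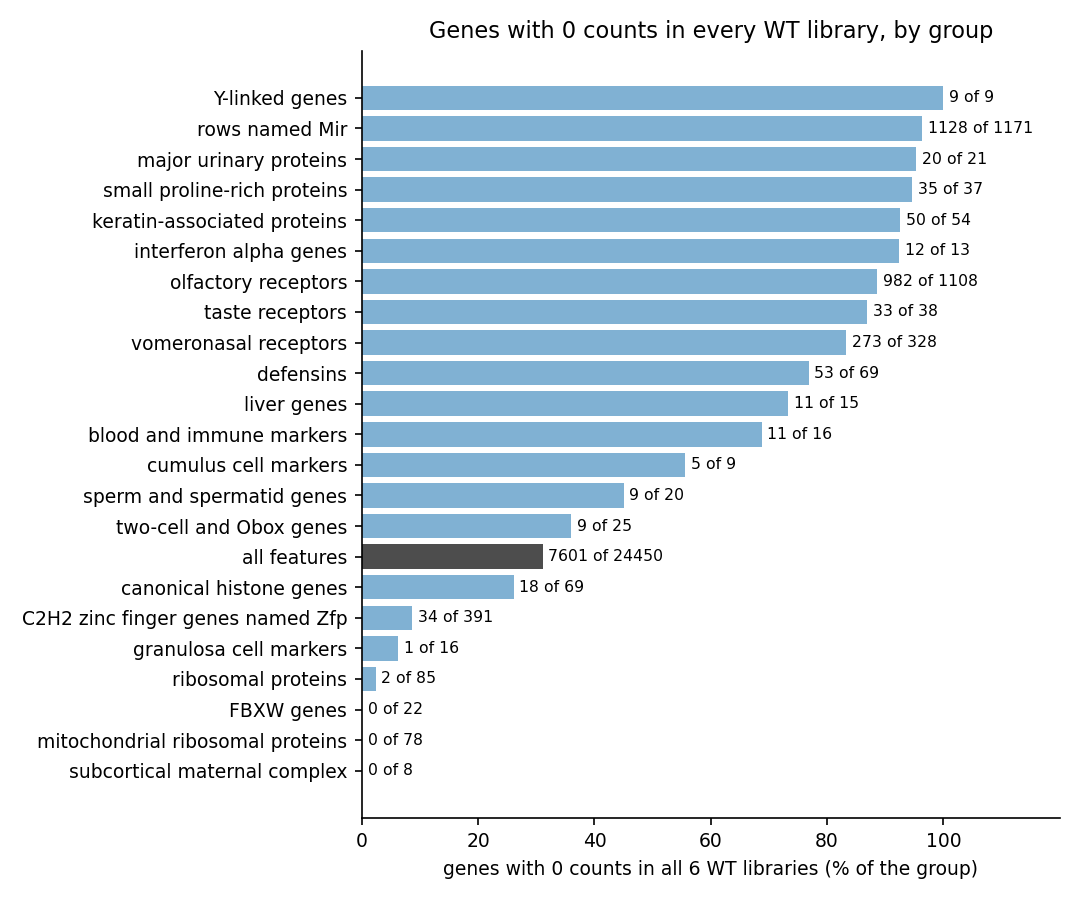
Share of genes with 0 counts in all 6 libraries (% of the group, axis from 0) for 22 groups and for all features (dark bar), with the counts beside each bar. Sensory, barrier and Y-linked genes lie above the 31.1% of all features, and the subcortical maternal complex, FBXW and mitochondrial ribosomal protein genes have 0 such members.

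Of 25 genes known to switch on in the 2-cell embryo or of the Obox family, 9 were at 0, a share of 36.0% that is near the 31.1% of all features, and 8 reached 1 CPM. Dux, Duxbl1, Zfp352 and Zscan4b were among the 9, whereas Zscan4d averaged 8.05 ± 7.19 CPM, with 22.1 and 8.81 CPM in batch 3, 2.96 CPM in batch 2 and 5.49, 3.48 and 5.44 CPM in batch 1. Nanog, T and Fgf4 were at 0, whereas Esrrb (126 ± 37.7 CPM) and Pou5f1 were present. All 20 protein-coding genes placed on the Y chromosome were at 0. On the X chromosome 361 of 871 protein-coding genes reached 1 CPM, with a median of 4.83 CPM per kilobase, against 10834 of 19643 autosomal genes with a median of 6.16 CPM per kilobase. The ratio of the X median to the autosomal median was 0.887 and 0.821 in batch 3, 0.711 in batch 2 and 0.743, 0.843 and 0.719 in batch 1, and averaged 0.787 ± 0.0729 (SD, n = 6). It was below 1 in 6 of 6 libraries. Both X chromosomes are known to be active in growing oocytes. Xist, the RNA that coats an inactive X, had 2 counts in all, both in WT 1. Of 29 imprinted genes 5 were at 0 (H19, Dlk1, Rtl1, Magel2 and Snurf), and Gnas (165 ± 90.9 CPM), Mest (158 ± 43.8 CPM) and Blcap (142 ± 40.6 CPM) were highest.

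The batches were then compared, since all 6 libraries carry 1 genotype. Over the 7446 genes with a mean of 10 CPM or more, Spearman's rho across genes was 0.957 within batch 3 and 0.972 to 0.985 within batch 1. Between batches it was 0.873 to 0.936 for batches 3 and 1, 0.738 to 0.785 for batches 3 and 2, and 0.808 to 0.837 for batches 2 and 1. These describe pairs of libraries that share the gene set and the length of each gene, and genes are not independent. Of the 100 most abundant genes of each batch, 56 were common to all 3, 78 to batches 3 and 1, 60 to batches 3 and 2, and 72 to batches 2 and 1. Every pair of libraries within a batch differed by more than counting error, since chi-square over degrees of freedom was 11.8 within batch 3 and 3.36 to 9.84 within batch 1, and no library was a copy of another.

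A level was taken to hold when the highest and the lowest of the 6 libraries lay within 2-fold. By that measure 2287 of 7446 genes (30.7%) held, and the median gene spanned 2.45-fold. Within batch 3 alone 7047 genes (94.6%) lay within 2-fold, and within batch 1 alone 7212 (96.9%), so most of the spread lay between batches. Batch 2 had the highest or the lowest of the 6 levels for 56.1% of these genes, and without it 3801 genes (51.0%) held. At the far end, 227 genes (3.05%) spanned more than 10-fold.

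Scaling moved these counts. The level of a typical gene on library totals was higher in batch 3 than in batch 1 by a median of 0.51 on the log2 scale, and in batch 2 than in batch 1 by 0.37. TMM factors, which set the typical gene to no change, were 1.18 and 1.28 in batch 3, 1.15 in batch 2 and 0.820 to 0.849 in batch 1, and with them 2913 genes (39.1%) held. On library totals 18.4% of genes at 10 to 30 CPM held, 47.7% of those at 100 to 300 CPM and 22.1% (27 of 122) of those at 1000 CPM or more. With TMM factors 34.4%, 42.9% and 6.56% of these 3 classes held, so the most abundant genes spread further when typical genes are aligned. The 92 ERCC spike-in rows held 0 counts in these libraries, and no other standard fixes the scale.

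The 10 steadiest genes at 100 CPM or more on library totals spanned 1.07-fold to 1.16-fold over the 6 libraries. Pdcd2l had 352 and 343 CPM in batch 3, 331 CPM in batch 2 and 335, 353 and 349.6 CPM in batch 1. Zc3h15 had 156 and 151 CPM in batch 3, 141 CPM in batch 2 and 144, 159 and 153 CPM in batch 1, and Rab38, a small GTPase of vesicle traffic, had 333 and 319 CPM in batch 3, 357 CPM in batch 2 and 355, 352 and 317 CPM in batch 1. The others were Akr1a1, Zfand2b, Commd1, 1110059G10Rik, Tex264, Sar1b and Tmem50a. With TMM factors the same 10 genes spanned 1.54-fold to 1.79-fold. The genes were chosen on totals, and the TMM factors themselves span 0.820 to 1.28, so a wider span with them follows at least in part from that choice.

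Differences between batches were tested with edgeR's quasi-likelihood test with TMM factors and Benjamini-Hochberg adjustment over 11262 genes, and genes with an adjusted p under 0.05 were called. Of these, 5850 (51.9%) differed among the 3 batches. Between batch 3 and batch 1, 2849 genes (25.3%) differed, 1244 (11.0%) higher and 1605 (14.3%) lower in batch 3, and 49.0% of them by 2-fold or more. Between batch 2 and batch 1, 4044 genes (35.9%) differed, 2268 (20.1%) higher and 1776 (15.8%) lower in batch 2, and 69.8% of them by 2-fold or more. Between batch 3 and batch 2, 4415 genes (39.2%) differed, 1947 (17.3%) higher and 2468 (21.9%) lower in batch 3. Batch 2 is 1 library whose spread is taken from the others, with 3 residual degrees of freedom in all. Scaled by library totals the split turned: 4694 genes were higher and 504 lower in batch 3 than in batch 1, and 3926 were higher and 743 lower in batch 2 than in batch 1. The 2849 calls between batches 3 and 1 shared 1748 genes with the 5198 on library totals, and 0 of those had the opposite sign. The labels put nothing but the batch between these libraries, so what the batches differed in cannot be told apart from the batch itself.

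Some groups of oocyte genes, and the actin and tubulin genes, had more members lower than higher in batch 3, compared with batch 1, under both scalings. Over all genes tested, 14.3% were lower with TMM factors and 4.48% on library totals. Of 8 genes of the subcortical maternal complex, 7 were lower with TMM factors and 5 on library totals, and 0 were higher under either. Their median log2 fold change was -1.55, beside 0.04 over all genes tested. However, 7 of these 8 genes averaged 1000 CPM or more. The 100 most abundant genes as a class held 25.95% and 22.5% of counts in batch 3 and 34.3% to 35.2% in batch 1. Whether these groups differed from other genes of like abundance was not tested. Tle6 differed by -1.73 ± 0.22 (log2 ± SE, edgeR adjusted p = 6e-05), with 1415 and 2195 CPM in batch 3, 1951 CPM in batch 2 and 4583, 4453 and 3195 CPM in batch 1. Of 10 zona and egg surface genes 7 were lower with TMM factors and 5 on totals. All 6 TCL1 genes and all 4 Obox genes tested were lower with TMM factors, and 4 and 4 of them on totals. Of 27 actin and tubulin genes tested, 17 were lower with TMM factors and 8 on totals, where 3 were higher. Other oocyte groups turned with the scaling. Of 22 genes for mRNA storage and translation control, 2 were higher and 9 lower with TMM factors, and 8 and 5 on totals. For 36 maturation genes tested, these counts were 4 and 11 with TMM factors and 13 and 4 on totals. The mRNA decay, NLRP and FBXW genes turned in the same way, as did the counts over all genes tested. Gdf9 had a log2 fold change of -1.34 ± 0.18 (edgeR adjusted p = 0.000105) and Obox2 of -1.60 ± 0.19 (adjusted p = 4.81e-05).

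Ribosomal protein and respiratory chain genes lay below the typical gene in batch 3, compared with batch 1, but the sign of their own change turned with the scaling. Of 80 ribosomal protein genes tested, 1 was higher and 32 were lower in batch 3 with TMM factors, but 17 were higher and 9 lower on library totals. Of 77 respiratory chain genes 1 was higher and 23 were lower with TMM factors, and 21 were higher and 4 lower on totals. The counts over all genes tested turned in the same way, 11.0% higher and 14.3% lower with TMM factors and 41.7% higher and 4.48% lower on totals. The median log2 fold change of the ribosomal protein genes was -0.36 beside 0.04 over all genes tested with TMM factors, and 0.19 beside 0.59 on totals. For the respiratory chain genes it was -0.32 with TMM factors and 0.23 on totals.

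Batch 2 differed from batch 1 in other groups. Over all genes tested, 20.1% were higher and 15.8% lower in batch 2 with TMM factors, and 34.9% were higher and 6.60% lower on library totals. Ribosomal protein genes were higher in batch 2 under both scalings, 40 of 80 with TMM factors and 58 on totals, with 5 and 3 lower and a median log2 fold change of 0.57 beside 0.05 over all genes tested. Their summed level was 14749.6 and 13129.6 CPM in batch 3, 24534 CPM in batch 2 and 16874, 15247 and 15290.5 CPM in batch 1. Of 22 canonical histone genes tested, 12 were higher with TMM factors, 14 on totals and 4 with DESeq2, where 13.5% of all genes tested were higher, and 0 were lower under any of them. The Rn45s share, given above, was also highest in batch 2, and its part in these results was not tested. Proteasome genes were lower in batch 2, 22 of 38 with TMM factors and 14 on totals, against 4 and 4 higher. FBXW genes were lower in 12 of 22 cases with TMM factors and 10 on totals, against 2 and 4 higher, and all 4 Obox genes tested were lower under both. Of 8 genes of the subcortical maternal complex, 1 was higher and 3 were lower with TMM factors, and 3 were higher and 3 lower on totals. Padi6 had a log2 fold change of 1.40 ± 0.24 (edgeR adjusted p = 0.000300) for batch 2 over batch 1, beside -2.02 ± 0.31 (adjusted p = 0.000111) for Khdc3. Bmp15 was higher by 1.55 ± 0.25 (adjusted p = 0.000154) while Gdf9 differed by -1.79 ± 0.24 (adjusted p = 3.95e-05).

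**Figure D4:**
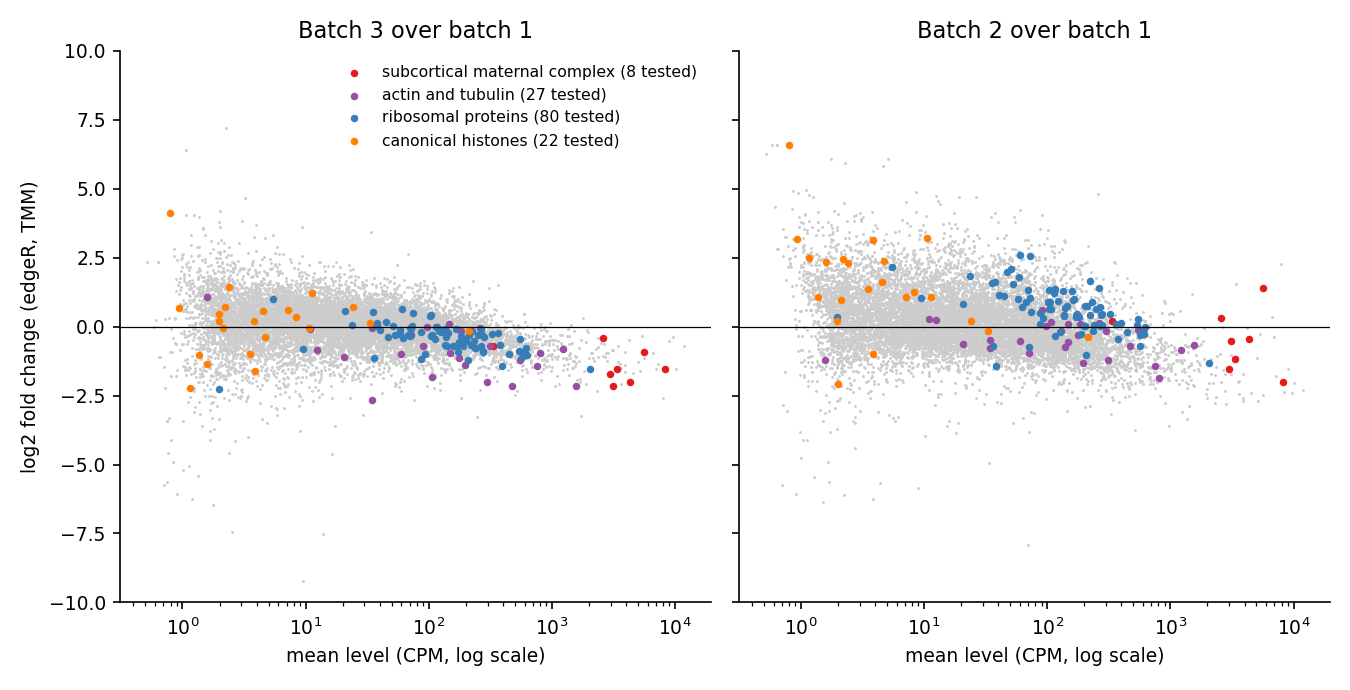
Log2 fold change (edgeR, TMM factors) against mean level (CPM, log scale) of all tested genes (grey) for batch 3 over batch 1 (left) and batch 2 over batch 1 (right), with 4 gene groups coloured. Subcortical maternal complex genes lie mostly below 0 on the left, and most ribosomal protein genes lie above 0 on the right.

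Among genes at 10 CPM or more, split by length into 5 equal classes, the median log2 fold change for batch 3 over batch 1 was -0.10 in the shortest class, the lowest of the 5, and 0.11 in the longest, the highest. For batch 2 over batch 1 it was -0.11 in the shortest class, -0.26 in the next, the lowest, and 0.06 in the longest, the highest.

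The genes with the largest called differences between batches 3 and 1 were mostly low in the oocyte. Dctn6, a dynactin subunit, was the most abundant of the 10 largest rises, with 171 and 124 CPM in batch 3, 61.8 CPM in batch 2 and 14.1, 15.1 and 20.3 CPM in batch 1, a log2 fold change of 2.62 ± 0.23 (edgeR adjusted p = 9.03e-06). March11, a membrane-bound ubiquitin ligase, had 97.0 and 62.3 CPM in batch 3, 27.9 CPM in batch 2 and 2.62, 5.80 and 6.59 CPM in batch 1 (3.45 ± 0.31, adjusted p = 9.03e-06). Prmt9, an arginine methyltransferase, had 10.9 and 9.42 CPM in batch 3, 1.67 CPM in batch 2 and 0.523, 0.232 and 0.860 CPM in batch 1, and Bcl6, a transcriptional repressor, 22.4 and 15.5 CPM in batch 3, 14.8 CPM in batch 2 and 1.05, 1.16 and 0.860 CPM in batch 1. In all 4 genes the batch 3 libraries were above the batch 1 libraries, and batch 2 lay between them. The other rises were Cts3, Zfp622, Slc4a3, Deup1, Pak3 and Ifi30. Deup1 rested on WT 5: its log2 fold change was 2.89, and 1.68 without that library, where it was no longer called.

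Slc45a3, a solute carrier, was the most abundant of the 10 largest falls, with 252 and 575 CPM in batch 3, 1487 CPM in batch 2 and 3256, 2232 and 2507 CPM in batch 1, a log2 fold change of -3.26 ± 0.30 (adjusted p = 1.36e-05). Mier2 had 26.4 and 71.7 CPM in batch 3, 421 CPM in batch 2 and 398, 291 and 284 CPM in batch 1 (-3.29 ± 0.34, adjusted p = 0.000123). Ccnd2, cyclin D2, had 3.96 and 1.82 CPM in batch 3, 25.9 CPM in batch 2 and 26.4, 22.7 and 23.8 CPM in batch 1 (-3.62 ± 0.34, adjusted p = 9.31e-06). In these 3 genes batches 3 and 1 did not overlap. Thrsp had 0 counts in batch 3 and 180 in batch 1, and was at least 32.6-fold lower in batch 3. Inha, the inhibin alpha subunit made by granulosa cells, had 1 count in batch 3 and 284 in batch 1, a 155-fold lower level in batch 3 with a 95% counting interval of 27.5 to 6124. The other falls were C130074G19Rik, Gpat3, 4931408C20Rik, Sbf1 and Kctd21. Of all 20 genes, 20 kept their direction on library totals and by DESeq2. They were chosen as the largest differences in these libraries. The median log2 fold change over all genes tested was 0.04 with TMM factors and 0.59 on totals, so a sign could hardly turn.

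Inha was not alone among granulosa markers. Inha, Gja1 and Amh together summed to 0 and 0.304 CPM in batch 3, 10.5 CPM in batch 2 and 48.7, 21.8 and 20.9 CPM in batch 1, and Gja1 was at least 9.79-fold lower in batch 3 than in batch 1. These 3 were chosen after their values were seen. The full list of 16 granulosa markers did not separate the batches, with 72.9 to 75.9 CPM in batch 3, 72.2 CPM in batch 2 and 61.0 to 97.6 CPM in batch 1, since Cyp19a1 had 35.3 and 34.6 CPM in batch 3, 30.7 CPM in batch 2 and 19.9, 19.7 and 19.5 CPM in batch 1. Of 6 granulosa markers tested, 3 were lower in batch 3 and 0 higher with TMM factors, 2 were lower and 2 higher on library totals, and 2 were lower and 0 higher with DESeq2. Over all genes tested 14.3% were lower with TMM factors, 4.48% on totals and 12.2% with DESeq2, which called 6.53% higher. The part of granulosa cells in the other differences between batches was not tested.

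**Figure D5:**
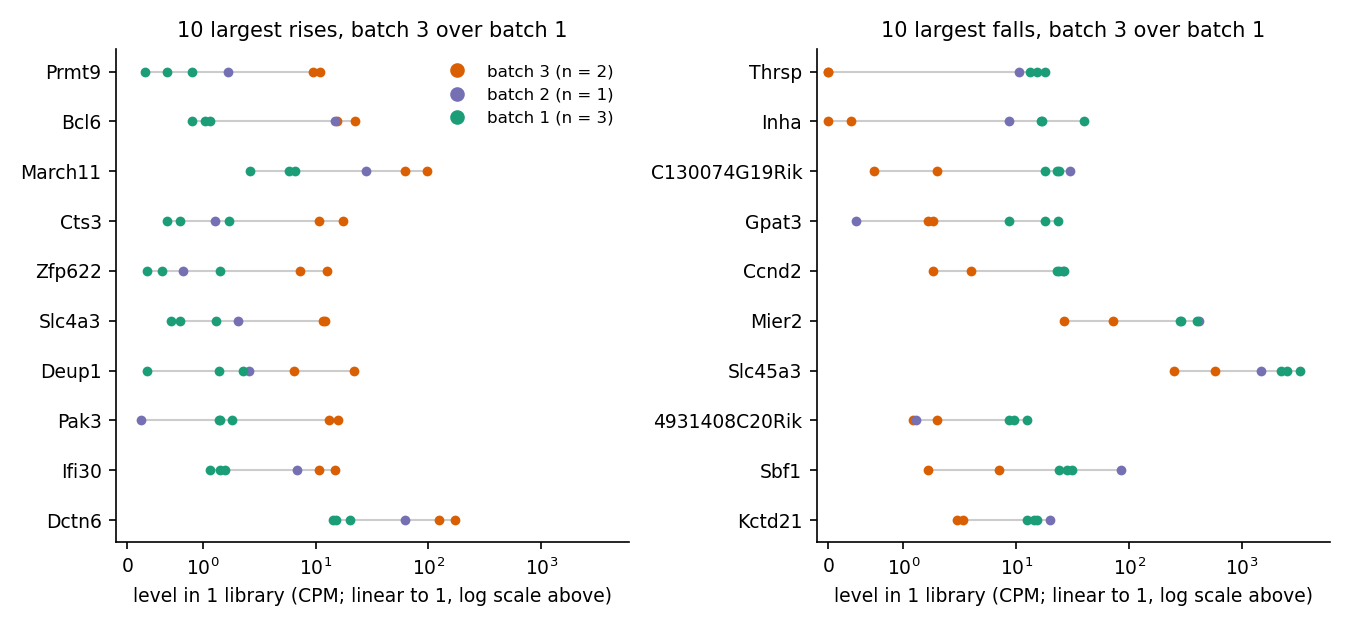
Level in each of the 6 libraries (CPM, linear to 1 and log scale above) of the 10 genes with the largest called rises (left) and falls (right) for batch 3 over batch 1, with 1 point per library coloured by batch. In all 20 genes the points of batch 3 and batch 1 do not overlap, which follows largely from their choice as the largest differences between these batches.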

How the data were processed

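Raw read counts per gene symbol were deposited by the authors with no normalization. Per the submitters' processing notes, Trim Galore 0.5.0, HISAT2 2.1.0 and featureCounts 1.6.4 were used with mm9. Annotation, strandedness and multiple alignments are not described in the sources used here, and counts of near-identical copies, overlapping genes and antisense genes are therefore uncertain. The 6 WT columns were used without the 92 ERCC rows, which left 24450 features and 3030716 to 5403852 counts per library. Counts were divided by the library total (CPM), and by the longest transcript of GENCODE vM21 on GRCm38 for levels per kilobase (97.7% of features matched by symbol and 0.814% by synonym). Coordinates of promoter windows are those of RefSeq on GRCm38.p6, not of the authors' build. Mean and SD are over the 6 libraries.

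Batches were compared with edgeR 4.0.16 in R 4.3.3 (quasi-likelihood F test, robust, TMM factors, filterByExpr by batch, batch as the only term, Benjamini-Hochberg adjustment over 11262 genes). Log2 fold changes are edgeR's, with standard errors derived from the test. Alternatives were library totals, DESeq2 1.42.0, other filters, levels per kilobase and leaving out each library. The scripts were tested on simulated data. Tables were made with Python 3.11.15. Intervals and limits of 0 counts cover counting error only, since no molecular identifiers are named. Genes were named by a rule: the 20 highest by CPM and per kilobase, the 5 markers, the 4 highest members and the members at 0 of each of 39 lists, the 2 highest of each of 36 families, the 10 steadiest, and the 10 largest called rises and falls between batches 3 and 1 at 10 CPM or more in the higher batch. Other list members are named with their values. The members, lists and families were chosen with earlier results of these data known.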

Additional observations from a re-analysis of the deposited data

Results flagged for a closer look

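For 175 values (single genes and sums over groups) the 6 libraries were examined for 1 library standing apart, by setting its gap to the nearest other library against the whole range. In all 33 stood out. In 7 of them (Foxl2, Obox6, Sohlh1, Eno1, Hk1, Slc2a3 and Rec8) the other 5 libraries were at 0, so that 1 library stood apart by construction. For the other 26, chance flags about 1 in 20 groups. WT 4, the only library of batch 2, was the one apart in 23 of all 33, 18 times high and 5 times low. Foxl2 and Slc2a3, with the other libraries at 0, are among these 23. The values of WT 4 cannot be told apart from the batch.

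WT 4 was high for Bmp15 (9416 CPM, the others 1627 to 2938), Padi6 (15074 CPM, the others 2759 to 4990), Nlrp5 (3897 CPM, the others 2059 to 2695), Nlrp2 (497 CPM, the others 258 to 334), Skp1a (11198 CPM, the others 4402 to 6844) and Rn45s (31124 CPM, the others 646 to 7136). Kit had 1116 CPM in WT 4 and 160 to 304 CPM in the others, and Gpr3 193 CPM against 34.4 to 51.0 CPM. Gapdh had 78.5 CPM in WT 4 against 15.8 to 17.8 CPM elsewhere, the most isolated of the values above 10 CPM, and Tpi1 had 159 CPM against 63.6 to 99.3 CPM. Tet3 had 440 CPM against 136 to 249 CPM. Summed ribosomal protein genes had 24534 CPM against 13130 to 16874 CPM. Olfr288 had 242 CPM against 17.5 to 69.6 CPM, Sbf1 84.0 CPM against 1.65 to 31.1 CPM, and Zfp36l2 11.3 CPM against 0.287 to 4.29 CPM.

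WT 4 was low for Spin1 (2731 CPM, the others 9734 to 12068), Ccnb1 (606 CPM, the others 1533 to 1754), Cnot7 (294 CPM, the others 731 to 900), Oog4 (450 CPM, the others 1097 to 1392) and Dicer1 (205 CPM, the others 297 to 348).

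WT 5 was low for Bcl2l1 (31.02 CPM, the others 105 to 113), Sall4 (158 CPM, the others 439 to 587) and Fgf8 (96.7 CPM, the others 149 to 171). It was high for Zscan4d (22.1 CPM, the others 2.96 to 8.81) and Deup1 (22.1 CPM, the others 0.262 to 6.38).

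The rest were values near 0. Foxl2 (1.48 CPM), Cat (1.48 CPM, the others 0 to 0.523) and Slc2a3 (0.185 CPM) were highest in WT 4, Hk1 (0.911 CPM) and Obox6 (0.304 CPM) in WT 6, Sohlh1 (0.860 CPM) in WT 3, Rec8 (0.232 CPM) in WT 2 and Eno1 (0.262 CPM) in WT 1. Apart from Cat, these genes were at 0 in the 5 other libraries.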

How the results depend on the processing

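Of the values that answer a comparison, 89 changed little under the alternatives run and 6 moved, counts by over 1.5 times and the share of the 100 highest by more than 1 SD over libraries. Per kilobase, 249 genes held 50% of the signal (458 by counts) and the 100 highest held 35.8% (29.1% by counts). Of the 2018 genes at 100 CPM or more, 933 held within 2-fold, and of the 7446 at 10 CPM or more, 2287 held. That count moved with the size of the set. The split between batches 3 and 1 went to 5198 calls on library totals (2849 with TMM factors). With a mean of at least 10 CPM as the filter, 9 of the 20 named genes were tested and called. Leaving out 1 library each, 2431 to 3801 genes held within 2-fold (3801 without WT 4), 10002 to 10127 reached 1 CPM throughout, 7787 to 8080 were at 0, 409 to 501 held 50% of counts and the 100 highest held 27.9% to 30.5%. Calls then ranged from 4896 to 6334 among the 3 batches, 1946 (without WT 5) to 3004 for batch 3 against batch 1, 3163 to 4813 for batch 2 against batch 1, 3858 to 4709 for batch 3 against batch 2, and 19 to 20 for the named genes. Without WT 4 no comparison with batch 2 could be made. DESeq2 called 2105 genes between batches 3 and 1, 2097 of them shared. Of 209 values of single genes, 208 kept their call and direction and 1, Deup1, lost its call without WT 5. These values belong to the 20 genes chosen for the largest differences between batches 3 and 1, so their direction could hardly turn. No paired analysis was possible because no replicate number occurs in 2 batches. Levels under about 1 CPM rest on a handful of counts: 1 count is worth 0.185 to 0.330 CPM. With 1 library in batch 2 and 3 residual degrees of freedom, its p-values lean on the spread of the other batches.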
